A study of Homo sapiens with 18 samples.

Results

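The comparison described here is the response to dexamethasone (Dex), a synthetic glucocorticoid (GC), in control MDA-MB-231 cells, an established human cell line from a triple-negative breast cancer (TNBC). It uses the 6 libraries labelled siNS, 3 with Dex and 3 with ethanol (Eth), out of the 18 samples of the series. These were chosen by their labels alone, and no measured value entered the choice. All 6 were given a non-specific SMART-pool siRNA at 25 nM for 48 h, then Dex at 100 nM or an equal volume of its vehicle Eth over 8 h, so the control group carries the transfection and the vehicle too. Per the study's methods, cells were kept before experiments in medium free of phenol red with charcoal-stripped serum, which is poor in steroids. The other 12 samples are the same cells, treated in the same way, after depletion of HP1γ (siHP1γ) or PRMT5 (siPRMT5). They entered the same fit, where they helped to set the filter and the spread, and the genes called in siNS cells are also looked up in them below. All results are for 1 cell line, 1 dose and 1 time. The study describes the samples of a group as biological replicates. The p-values weigh a change with Dex against the spread between replicates, which was estimated over all 18 samples.

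GCs cross the cell membrane and bind the GC receptor (GR, encoded by NR3C1), which waits in the cytosol with heat shock proteins and immunophilins. The bound receptor enters the nucleus, binds DNA at a palindrome of paired half-sites and recruits coregulators to raise transcription, as at TSC22D3, FKBP5 and PER1. It is also known to lower inflammatory genes, in part through the transcription factors AP-1 (dimers of JUN and FOS proteins) and NF-κB. In breast cancer the effect of GC differs between tumour types, and the study asked how GC acts on genes of TNBC cells.

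The siNS libraries held 9192643 to 9994871 counted reads with Eth (median 9852578) and 9486609 to 11517559 with Dex (median 11299486). No single gene took over 0.859% of a siNS library. Levels are given as CPM, which brings the counts of each library to the same total after TMM scaling. These are not corrected for gene length, so they compare a gene between libraries and not 1 gene with another. Replicates of a group differed by more than sampling noise, so all 6 counted as separate samples. VIM, MSN and CD44, genes of the mesenchymal state that marks this line, reached between 526 and 8749 CPM in every library. Of 9 genes of luminal breast cells, ESR1, PGR, CDH1 and KRT19 had at most 2 counts in a library. The other 5 were detected in the siNS libraries, with up to 3401 counts for KRT8, 3894 for KRT18, 117 for EPCAM, 77 for FOXA1 and 66 for GATA3.

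Dex changed 414 of the 15298 genes tested, or 2.71%. A gene was called when its adjusted p-value was under 0.01 and its fold change at least 1.5, by edgeR's quasi-likelihood test with Benjamini-Hochberg adjustment. Higher levels with Dex were found for 252 genes (1.65%) and lower levels for 162 (1.06%). The increases were larger. Their median log2 fold change was 1.05, and 135 of the 252 (53.6%) at least doubled, while the median decrease was 0.863 on the log2 scale and 59 of 162 (36.4%) fell to 50% or less. A change of at least 4-fold was seen for 50 higher genes and 4 lower genes. The median level of the higher genes was 13.3 CPM with Eth and 28.0 CPM with Dex, and that of the lower genes 24.7 CPM and 13.9 CPM. Sorting by direction makes Eth the low state of each higher gene and the high state of each lower gene, so the Eth medians are no comparison of starting levels. Under 1 CPM with Eth were 33 of the higher genes and 0 of the lower genes. A gene that low with Eth could hardly be called lower, so these counts do not compare the directions. The 252 higher genes held 1.22% to 1.28% of all counts with Eth and 2.79% to 2.87% with Dex, and the 162 lower genes 1.19% to 1.24% and 0.640% to 0.669%. These shares and medians describe genes picked by this same contrast. The median of all genes tested was 0.0036 on the log2 scale. For all 414 genes the 3 Dex values lay to one side of the 3 Eth values, which was the case for 4271 of all genes tested (27.9%).

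The 4 markers of GR activation given for these cells all rose. TSC22D3 (chromosome X, 107713221 to 107777342, minus strand, hg38), which encodes the anti-inflammatory protein GILZ, measured 19.8, 17.8 and 19.4 CPM with Eth and 238, 198 and 271 CPM with Dex. The groups are far apart, with a log2 fold change of 3.64 (adjusted p = 2.1e-18, standard error 0.11). FKBP5 (chromosome 6, 35573585 to 35728583, minus strand), an immunophilin that lowers the affinity of GR for its hormone, read 111, 115 and 113 CPM with Eth and 502, 501 and 505 CPM with Dex. Its replicates were close, at 113 ± 1.82 (SD, n = 3) and 503 ± 1.89 CPM, and rose by 2.15 on the log2 scale (adjusted p = 2.8e-17, standard error 0.07). PER1 (chromosome 17, 8140472 to 8156506, minus strand), a repressor of the circadian clock, gave 11.1, 15.7 and 13.5 CPM with Eth and 84.1, 68.9 and 82.5 CPM with Dex (log2 fold change 2.54, adjusted p = 1.1e-15, standard error 0.11). KLF9 (chromosome 9, 70384604 to 70414657, minus strand), a zinc finger transcription factor, gave 16.8, 16.7 and 15 CPM with Eth and 111, 107 and 125 CPM with Dex (log2 fold change 2.82, adjusted p = 2.8e-17, standard error 0.10). All 12 Eth values of these 4 genes lay under the Dex values of the same gene.

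Both markers of repression fell. ESM1 (chromosome 5, 54977867 to 55022671, minus strand) encodes a proteoglycan secreted by endothelial and tumour cells. It measured 33.7, 34.3 and 27.4 CPM with Eth and 3.00, 4.47 and 3.99 CPM with Dex, which left 11.9% of its level (log2 fold change -3.07, adjusted p = 3.4e-15, standard error 0.14). IL11 (chromosome 19, 55364382 to 55370463, minus strand), a cytokine of the IL-6 family, measured 31.8, 31.2 and 28.4 CPM with Eth and 7.86, 6.43 and 6.35 CPM with Dex. Its log2 fold change was -2.14 (adjusted p = 2.3e-13, standard error 0.12), which left 22.7%. The values of the groups did not overlap for either gene.

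**Figure D1:**
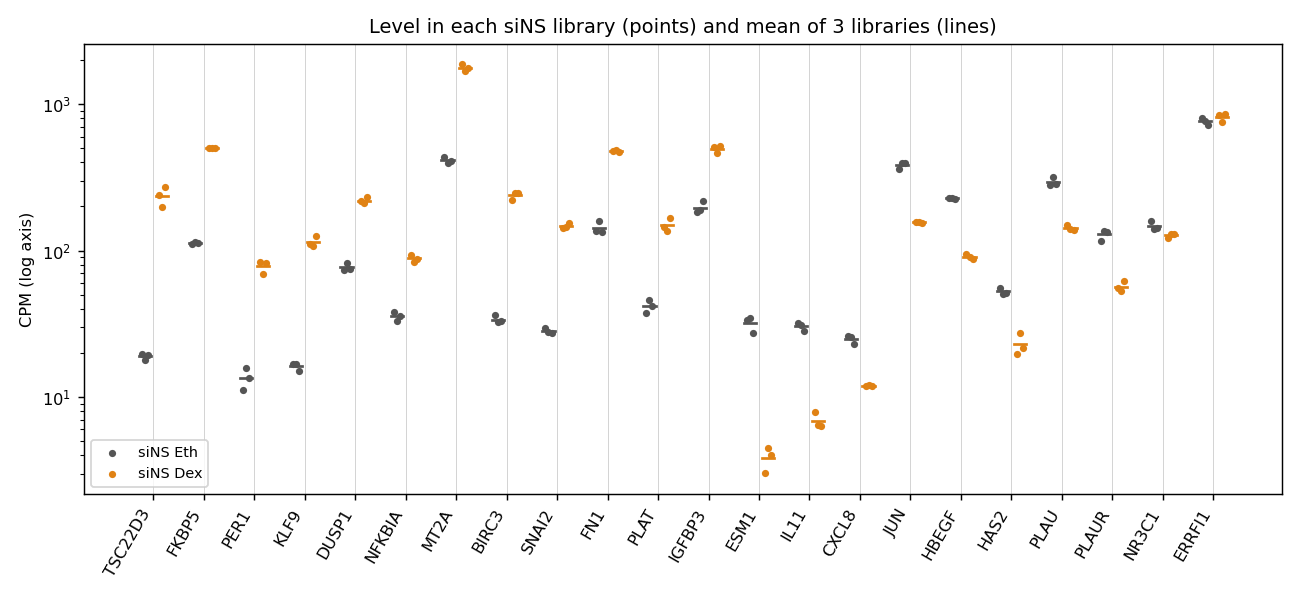
CPM of 22 genes (log axis) in each of the 3 siNS Eth libraries (grey points) and the 3 siNS Dex libraries (orange points), with a line at each mean. From TSC22D3 to IGFBP3 the orange points lie above the grey ones, from ESM1 to PLAUR below them, and for NR3C1 and ERRFI1 the groups lie close together.

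The receptor itself was not called. NR3C1 measured 160, 141 and 144 CPM with Eth and 122, 130 and 130 CPM with Dex. Every Dex value was the lower, but the log2 fold change of -0.22 (95% confidence interval -0.39 to -0.04) had an adjusted p of 0.14. Of 14 tested genes on the list of GR and its chaperones, FKBP5 alone was called, against 2.71% of all genes. The enzymes HSD11B1 and HSD11B2, which handle its hormone, had at most 3 and 12 counts in a siNS library and were not tested. HSP90AA1, an inducible HSP90 on which GR folding depends, read 8036, 7528 and 8134 CPM with Eth and 5876, 6798 and 6516 CPM with Dex, a log2 fold change of -0.30 (adjusted p = 0.0015) that was under the fold change limit. HSP90AB1, its constitutive partner, had a log2 fold change of 0.00 (standard error 0.06). Of 19 tested coregulators of GR, 0 were called by edgeR, near the 2.71% of all genes called. At an unadjusted p under 0.05 were 7 (22.4% of all genes tested were), and log2 fold changes ran from -0.15 to 0.51. Among the 19 were PRMT5 (226, 262 and 259 CPM with Eth, 244, 247 and 226 CPM with Dex) and CBX3, which encodes HP1γ (274, 234 and 258 CPM with Eth, 220, 241 and 229 CPM with Dex).

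Genes known as GC targets in many tissues rose together. Of 25 tested genes on that list, 20 were called higher (80.0%) and 0 lower, against 1.65% and 1.06% of all genes, and the median log2 fold change was 1.39. The list was chosen with earlier results of these data known, so the share describes it and is no test. DUSP1, a phosphatase that switches off MAP kinases, went from 74.1, 81.6 and 74.8 CPM to 217, 210 and 231 CPM (log2 fold change 1.51, standard error 0.08). SGK1, a kinase that keeps sodium channels at the cell surface, went from 40.3, 40.3 and 37.4 CPM to 105, 103 and 102 CPM (1.39, standard error 0.08). SNAI2, a repressor that drives the epithelial-to-mesenchymal transition, went from 29.5, 27.8 and 27.1 CPM to 143, 144 and 154 CPM (2.39, standard error 0.07). These 3 genes showed a narrow spread within each group. BIRC3, a ubiquitin ligase that limits cell death and feeds into NF-κB, rose 7.04-fold, from 33.8 ± 2.02 to 238 ± 15.7 CPM (SD, n = 3). DDIT4, an inhibitor of mTORC1, RGS2, a brake on G protein signalling, and BCL6, a transcriptional repressor, had log2 fold changes of 1.01, 0.87 and 1.32 (adjusted p at most 5.3e-06).

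The 5 tested GC targets that were not called had log2 fold changes of 0.09 (ERRFI1, a brake on EGFR), 0.18 (GLUL, glutamine synthetase), 0.35 (TIPARP, an ADP-ribosyltransferase), 0.75 (PDK4, a kinase that shuts pyruvate out of the mitochondria) and -0.67 (CRISPLD2, a secreted protein). ERRFI1 overlapped between groups, at 810, 762 and 725 CPM with Eth and 841, 751 and 859 CPM with Dex. PDK4 was low, at 1.94 to 3.31 CPM with Eth and 3.16 to 4.86 CPM with Dex, with an adjusted p of 0.057. CIDEC, a lipid droplet protein, had 0 counts in the 3 Eth libraries and 3, 5 and 7 counts in the Dex libraries, at least 4.52-fold higher if 3 counts are taken as the floor over the Eth group. It was called, but lost the call under DESeq2 and in every fit that left out 1 siNS library except siNS Dex replicate 1, with adjusted p up to 0.021. With CIDEC at that bound, the median of the list stayed 1.39.

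Metallothioneins, small cysteine-rich proteins that bind zinc and copper, were among the largest increases. MT2A measured 436, 395 and 407 CPM with Eth and 1865, 1678 and 1767 CPM with Dex (log2 fold change 2.10, standard error 0.08). MT1E measured 94.8, 84.7 and 81.4 CPM with Eth and 519, 484 and 460 CPM with Dex (2.49, standard error 0.08). MT1X measured 6.51, 5.91 and 7.25 CPM with Eth and 40.6, 35.8 and 48.2 CPM with Dex (2.67, standard error 0.16). The groups were apart for all 3, which are the only metallothioneins of the 10 on the list that were tested. The zinc exporter SLC30A1 (-0.03) and the metal-sensing factor MTF1 (0.18), on the same list, were not called. The 3 genes lie within 100 kb of each other on chromosome 16, and MT1E starts 15978 bases past the end of MT2A. The pseudogenes MT1XP1 and MT1P3, with log2 fold changes of 2.51 and 2.71, are near copies of metallothionein genes, and their reads cannot be told apart from those of the genes with certainty.

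Some genes that restrain inflammation rose, and some cytokines fell. Of 17 tested brakes on inflammation, 8 were called higher, 0 lower and 9 were not called, against 1.65% and 1.06% of all genes called higher and lower, with a median log2 fold change of 0.43. NFKBIA, the inhibitor that holds NF-κB in the cytosol, measured 37.9, 33.0 and 35.7 CPM with Eth and 93.2, 83.6 and 88.1 CPM with Dex (log2 fold change 1.31, standard error 0.09). TNFAIP3, a ubiquitin-editing enzyme that acts upstream of NF-κB, rose from 18, 20.8 and 16.1 CPM to 36.2, 36.9 and 37.1 CPM (1.01, standard error 0.10). ZFP36 (0.83) and ZFP36L2 (1.05), which bind AU-rich mRNAs and mark them for decay, and IRAK3 (1.12), a kinase-dead brake on IL-1 receptor signalling, were also higher. SOCS3, a brake on JAK signalling, was called at 0.62 but fell under the fold change limit without siNS Dex replicate 1 (0.57) or 3. ANXA1, a protein long linked to the anti-inflammatory action of GC, was not called at -0.19 (678, 685 and 694 CPM with Eth, 564, 650 and 586 CPM with Dex). CYLD (-0.43) and ZFP36L1 (0.38) were not called either.

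Of 18 tested cytokines and inflammatory mediators, 5 were called lower and 1 higher, against 1.06% and 1.65% of all genes. The median log2 fold change was -0.20. CXCL8, the neutrophil chemokine IL-8, measured 26.2, 25.8 and 23.1 CPM with Eth and 11.9, 12 and 11.9 CPM with Dex (-1.07, adjusted p = 4.5e-07, standard error 0.12). IL1A, which signals at the IL-1 receptor, measured 95.7, 94.8 and 94.3 CPM with Eth and 48.4, 56.7 and 63.7 CPM with Dex (-0.76, standard error 0.09). The Eth values of IL1A were within 2 CPM of each other, and the Dex values were spread but all lower. IL1B, its neighbour 45258 bases away on chromosome 2, fell by 0.81 on the log2 scale, and CSF1, a growth factor of macrophages, by 0.66. Their receptor moved the other way. IL1R1, which binds both IL-1 proteins, rose from 3.42, 4.08 and 2.80 CPM to 17.6, 15.4 and 19.1 CPM (2.34, standard error 0.14). CSF3, the growth factor of neutrophils, was the 1 cytokine called higher (0.93, adjusted p = 0.00016). LIF (-0.39), the chemokine CXCL1 (-0.15) and the adhesion molecule ICAM1 (0.20) were not called.

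JUN, a subunit of AP-1, fell to 40.6% of its level. It measured 359, 399 and 395 CPM with Eth and 158, 158 and 153 CPM with Dex (log2 fold change -1.30, adjusted p = 6e-12, standard error 0.08). Of 14 tested immediate early genes, which respond to growth signals before new protein is made, JUN and IER2 (-0.78) were called lower and 0 higher. Of all genes, 1.06% were called lower and 1.65% higher, and the median of the list was -0.31. FOSL1, the FOS-family partner of JUN that is abundant in TNBC lines, went from 564, 504 and 517 CPM to 395, 299 and 390 CPM. Its log2 fold change of -0.55 (adjusted p = 0.00013) was under the fold change limit, and without siNS Dex replicate 1 or 3 it passed (-0.62 and -0.61). EGR1 was as close to the limit, at -0.58 (adjusted p = 2.2e-05), and was called under DESeq2's scaling. FOSL2 (0.12) and MYC (0.20) were not called. HBEGF, a ligand of EGFR, fell from 229, 228 and 223 CPM to 94.2, 90.4 and 87.8 CPM (-1.32, standard error 0.07).

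Letters of the AP-1 motif, with any middle base, stood in the promoters of 28 of 112 lower genes (25%). They stood in those of 11 of 190 higher genes (5.79%) and in 4.67% of 10167 promoters of all genes tested. The promoter was taken as the 250 bases before to 50 bases after the start site in RefSeq (GRCh38.p14), whose table holds 10167 of the 15298 genes. The motif searched was TGANTCA, which reads the same on both strands. N is any base, so TGAATCA in TFPI2 and TGATTCA in ANKRD1 count as matches, and the shares are not those of 1 fixed site. Read the other way, 5.89% of tested genes with these letters were called lower and 2.32% higher, against 0.867% and 1.85% of genes without them. The 28 genes held 33 matches, and 30 of these lay before the start site. Those of 6 named protein-coding genes are shown as examples, 5′ to 3′ on the strand of the gene, with the match in capitals.
IL11 (chr19:55370538-55370574, minus strand): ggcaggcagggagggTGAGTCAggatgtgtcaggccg
PLAUR (chr19:43670334-43670370, minus strand): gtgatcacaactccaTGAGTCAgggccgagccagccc
CXCL8 (chr4:73740417-73740453, plus strand): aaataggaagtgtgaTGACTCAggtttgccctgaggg
AMIGO2 (chr12:47080161-47080197, minus strand): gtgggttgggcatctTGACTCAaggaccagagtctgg
IL1A (chr2:112784484-112784520, minus strand): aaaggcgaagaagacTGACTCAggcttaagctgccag
EMP1 (chr12:13196536-13196572, plus strand): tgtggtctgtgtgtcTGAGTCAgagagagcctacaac
Counted from the start site, with bases before it negative, the match starts at -96 in IL11, -186 in PLAUR, -231 in AMIGO2, -137 in CXCL8, -12 in IL1A and -175 in EMP1. EMP1 and IL1A hold another match in the same window. TFPI2, LUCAT1, MANCR and LINC02535, whose values are given below, hold the motif too. A match is a description of letters, and binding was not measured. Among the higher genes, MT2A, ITGA5 and ANKRD1 hold the same motif.

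The half-site of GR and an E-box stood at closer shares. TGTTCT, searched on both strands, stood in 8.95% of the promoters of higher genes, 8.93% of lower genes and 8.54% of all. CACGTG, the E-box read by clock and MYC proteins, stood in 11.6% of higher, 6.25% of lower and 9.99% of all promoters. The full GR palindrome was searched within 5 kb of the start site as AGAACA and TGTTCT with 3 free bases between them, allowing 1 mismatch in the 12 fixed bases. It was found for 10 of 190 higher genes (5.26%), 3 of 112 lower genes (2.68%) and 3.60% of all, and 0 called genes had an exact match. Those of the genes with values given here are shown on the strand of the gene, with the 15 bases of the palindrome in capitals, to show how near they come to it.
PER1 (chr17:8154445-8154489, minus strand): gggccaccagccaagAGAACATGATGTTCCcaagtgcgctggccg
BIRC3 (chr11:102312876-102312920, plus strand): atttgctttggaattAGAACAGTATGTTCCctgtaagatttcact
FN1 (chr2:215437588-215437632, minus strand): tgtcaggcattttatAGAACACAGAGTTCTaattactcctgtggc
MYPN (chr10:68105979-68106023, plus strand): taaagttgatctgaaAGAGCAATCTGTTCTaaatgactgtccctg
On the same count, their centres lie at -2063, -4586, -1542 and -3487. PER1, BIRC3 and FN1 rose, and MYPN, a sarcomere protein, fell (-1.47).

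**Figure D2:**
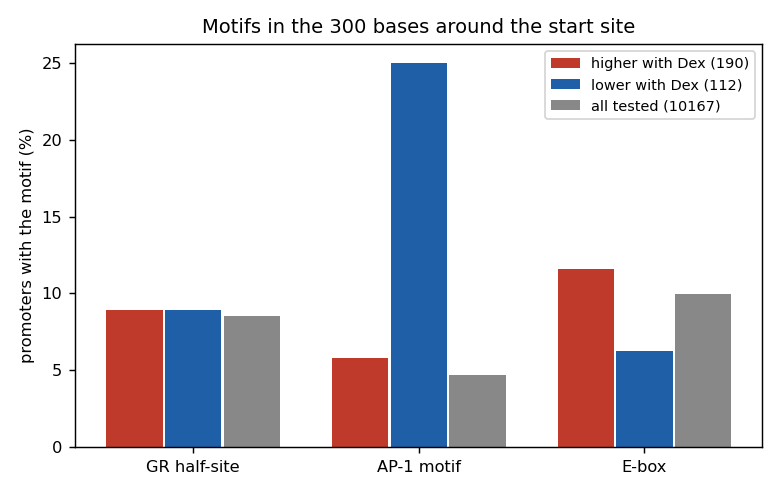
Share of promoters (vertical axis, percent, from 0) that hold the GR half-site, the AP-1 motif or the E-box, for 190 genes higher with Dex (red), 112 lower with Dex (blue) and all 10167 tested genes with a RefSeq promoter (grey). For the AP-1 motif the blue bar is at 25% and the others are at 5.79% and 4.67%.

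Transcription factors downstream of GR rose in part. Of 17 tested KLF and C/EBP factors, 5 were called higher and 0 lower, against 1.65% and 1.06% of all genes. CEBPD, a factor of the acute phase response, measured 13.6, 13.0 and 15.2 CPM with Eth and 55.0, 45.3 and 54.4 CPM with Dex (1.89, standard error 0.11). CEBPB measured 58.8, 72.3 and 69.0 CPM with Eth and 145, 140 and 169 CPM with Dex (1.18, standard error 0.11). KLF7 rose by 1.47. KLF15 was called at 0.74 (adjusted p = 0.0015). It lost the call with DESeq2 on the 6 siNS libraries and without siNS Eth replicate 1 or siNS Dex replicate 1. Over all alternatives its adjusted p reached 0.027. KLF6, a tumour suppressor of the same family, went from 430, 392 and 420 CPM to 626, 562 and 605 CPM but stayed under the fold change limit (0.53, adjusted p = 1.7e-06). Among 19 tested clock genes, PER2 (1.10) and CRY2 (0.90) were called higher with PER1, all of them repressors of the clock. The repressors PER3 (0.48) and CRY1 (0.11), of the same families, were among the 16 not called. Of all genes, 1.65% were called higher. BHLHE40 (-0.31) and the activator subunit ARNTL2 (-0.39) were not called.

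Genes of the plasminogen system and of blood vessel growth moved in both directions. Of 22 tested, 3 were called higher and 5 lower, against 1.65% and 1.06% of all genes, with a median log2 fold change of -0.06. PLAT, the tissue plasminogen activator, measured 37.2, 46.3 and 41.5 CPM with Eth and 145, 137 and 166 CPM with Dex (1.84, adjusted p = 1.4e-13, standard error 0.10). The urokinase plasminogen activator PLAU went the other way, from 279, 320 and 285 CPM to 148, 141 and 139 CPM (-1.05, adjusted p = 3.5e-11, standard error 0.07). Its receptor PLAUR measured 116, 136 and 135 CPM with Eth and 55.3, 52.8 and 62.0 CPM with Dex (-1.18, standard error 0.09). The 2 activators, which make the same enzyme, thus changed in opposite directions in all 3 libraries of each group. TFPI2, an inhibitor of plasmin, fell by 0.83 and VEGFC, a growth factor of lymphatic vessels, by 0.89. CCBE1, a secreted protein needed to process VEGFC, rose from 35.7, 32.9 and 38.8 CPM to 79.5, 73.9 and 82.4 CPM (1.14, adjusted p = 1.1e-10, standard error 0.08). PDGFB rose by 1.52. C10orf55, a lower lncRNA, overlaps PLAU, so their reads cannot be told apart without strand.

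The matrix and its receptors changed as single genes, with 4 higher and 3 lower of 29 tested and a median log2 fold change of -0.07. Of all genes, 1.65% were called higher and 1.06% lower. FN1, fibronectin, measured 137, 159 and 134 CPM with Eth and 481, 486 and 469 CPM with Dex (1.74, standard error 0.09). Its receptor subunit ITGA5 rose by 0.64, while ITGA2, a collagen receptor subunit, fell by 0.82. ITGA10, another collagen receptor subunit, rose from 1.21, 1.22 and 1.45 CPM to 12.5, 12.1 and 10.7 CPM. LOX, which crosslinks collagen, rose by 1.12, and the collagenase MMP1 and the protease ADAMTS1 fell by 1.19 and 1.07. ITGB1, ITGA6, ITGA3 and TIMP2 were not called, with log2 fold changes from -0.14 to 0.04. HAS2, which makes hyaluronan, measured 55.6, 50.7 and 51.5 CPM with Eth and 19.8, 27.3 and 21.5 CPM with Dex (-1.21, adjusted p = 7.6e-10, standard error 0.10). HAS2-AS1 overlaps it. CD44, the receptor of hyaluronan, read 857, 768 and 803 CPM with Eth and 565, 526 and 579 CPM with Dex, a log2 fold change of -0.54 that was under the limit despite an adjusted p of 3.2e-07.

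Growth factor signalling, TGF-β and ion transport gave calls in both directions, where 1.65% of all genes were called higher and 1.06% lower. IGFBP3, which binds insulin-like growth factors, measured 182, 190 and 217 CPM with Eth and 506, 463 and 516 CPM with Dex (1.33, adjusted p = 1.4e-13, standard error 0.07). IGFBP1, 18585 bases from it, rose by 0.82, and IGFBP4 was called at 0.63 but fell under the limit without siNS Dex replicate 1 (0.58). In all, 4 of 22 feedback genes of growth factors were higher and 2 lower. The lower ones were HBEGF and DUSP10, a MAP kinase phosphatase whose call (-0.79, adjusted p = 0.0076) was lost with DESeq2 on the 6 libraries and in every fit that left out 1 siNS library except siNS Eth replicate 2, with adjusted p up to 0.067. Of 20 TGF-β and Hippo genes, ANKRD1, a target of YAP, rose from 253, 257 and 273 CPM to 770, 848 and 744 CPM (1.59, standard error 0.06). TGFB2 (0.68) and TGFBR3 (0.78) were higher and BMP6 (-1.30) lower. CCN1 (0.02) and CCN2 (0.23), also YAP targets, were not called. Of 14 genes of ion transport, SGK1 and SCNN1A were higher and NEDD4L lower (-0.64). SCNN1A, a subunit of the epithelial sodium channel that SGK1 and NEDD4L control, went from 0.331, 0.408 and 0.518 CPM to 7.24, 4.58 and 4.81 CPM, and overlaps LTBR.

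Fuel use and survival showed a few large increases. Of 22 genes of fuel metabolism, 4 were higher, CIDEC among them, against 1.65% of all genes. ANGPTL4, an inhibitor of lipoprotein lipase, rose from 0.883, 0.815 and 0.518 CPM to 7.33, 6.32 and 6.08 CPM. IRS2, an adaptor of the insulin receptor, rose by 1.24 and PLIN2, a lipid droplet protein, by 0.69. PPARGC1A, a coactivator of mitochondrial genes, was the 1 lower gene (-1.05, adjusted p = 0.0002). Of 16 survival genes, BIRC3, BCL6, BCL2L1 (0.65) and MCL1 (0.63) were higher and 0 lower, against 1.65% and 1.06% of all genes. BCL2L1 and MCL1 encode members of the BCL2 family that oppose cell death. BCL2L1 measured 500, 541 and 545 CPM with Eth and 868, 821 and 800 CPM with Dex. MCL1 fell under the limit without siNS Dex replicate 3 (0.58).

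Genes on no functional list were among the largest changes too. VSTM2L went from 0.773, 0.815 and 0.932 CPM to 18.8, 18.6 and 19.1 CPM (log2 fold change 4.47, standard error 0.18). DNER, a membrane ligand of Notch, rose by 2.64, NNMT, which methylates nicotinamide, by 2.69, and DAAM2, a formin, from at most 0.621 CPM to at least 4.63 CPM. AKAP12, a scaffold for protein kinases A and C, measured 298, 336 and 303 CPM with Eth and 1272, 1440 and 1462 CPM with Dex (2.15, standard error 0.09). TXNIP, an inhibitor of thioredoxin, rose by 1.54, and AHNAK, a giant scaffold protein, by 0.88 (standard error 0.14). Among the decreases, TAGLN3 measured 23.3, 27.1 and 27.4 CPM with Eth and 8.04, 5.67 and 7.62 CPM with Dex (-1.85, standard error 0.12). MAST4, RASEF, AMIGO2, TMEM158, FGF5 and CXADR fell by 1.21 to 1.52 on the log2 scale. TM4SF1, PHLDA1, EMP1 and ADAMTS6 fell the most in CPM among the called genes, apart from JUN, with log2 fold changes of -0.80, -1.02, -0.87 and -0.97. EMP1 was tight in both groups, at 723, 713 and 730 CPM and 397, 393 and 399 CPM. AL596244.1 (2.26) and AC137932.2 (-1.23), not found by symbol in GENCODE 44, were called too.

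Of 21 tested cell cycle genes, 0 were called by edgeR, near the 2.71% of all genes called. At an unadjusted p under 0.05 were 6, against 22.4% of all genes, and the median log2 fold change was -0.09. MKI67 measured 1319, 1547 and 1357 CPM with Eth and 1459, 1845 and 1700 CPM with Dex (0.24, adjusted p = 0.32). CCNB1 (0.02) and TOP2A (-0.04) were also not called, and CCND1, cyclin D1, was under the fold change limit (-0.45, adjusted p = 7.8e-05). Of 12 reference genes, 0 were called, also near the 2.71% of all genes, with 2 at an unadjusted p under 0.05. ACTB and GAPDH had log2 fold changes of 0.10 and 0.11. Marker genes of other cells were near the floor. Of 5 immune markers only CD68 was tested (1.31 to 2.87 CPM). Both tested endothelial markers were higher with Dex, PECAM1 from 1.10, 1.32 and 1.45 CPM to 3.97, 3.92 and 4.53 CPM and KDR from 1.66, 2.24 and 1.76 CPM to 6.98, 8.17 and 6.53 CPM. The defining endothelial genes VWF and CDH5 had at most 7 counts in a library, and the list summed to 2.76 to 3.57 CPM with Eth and 11 to 12.1 CPM with Dex. FOXA1, a luminal factor, was called lower (-0.72, adjusted p = 0.0088), and lost the call with the same settings as DUSP10 and with the replicate number as a block.

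Among called genes annotated as long non-coding RNAs (lncRNAs) in GENCODE 44, more were lower than higher, and most of those tested were not called. Of 659 tested lncRNAs, 18 were called lower and 5 higher, whereas of 11790 protein-coding genes 134 were lower and 228 higher. Of all genes tested, 1.06% were called lower and 1.65% higher. Only 391 of the 414 called genes were found in GENCODE 44 by symbol. Genes not found, such as AL596244.1 (higher) and AC137932.2 (lower), are in neither count, so the balance of all non-coding genes is not known. LUCAT1 fell from 58.5 ± 1.13 to 30.1 ± 0.465 CPM (SD, n = 3), which is -0.96 on the log2 scale. MANCR (-0.72) and VIM-AS1 (-1.07) fell too, and LINC01605 measured 8.39, 8.26 and 6.84 CPM with Eth and 3.18, 3.38 and 3.17 CPM with Dex. Of the 18, 5 overlap no other gene, and LINC01293 (-1.14) and LINC02535 (-0.76) are among these. UCA1 was higher (0.76). MYOSLID and LINC00607 had 0 counts with Eth and at most 1 CPM on average with Dex. The strand setting of the counting is not given in the sources used here, so reads of an lncRNA, or of any gene named here, that overlaps another gene cannot be told apart from those of that gene. Such overlaps include TSC22D3 with NCBP2L and IL1R1 with IL1R1-AS1.

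Genes called with Dex lay near another called gene more often than genes not called did, though most had none near them. Of 391 called genes found in GENCODE 44, 50 (12.8%) had another called gene within 100 kb, against 6.52% of genes not called. They formed 31 pairs, and both genes moved the same way in 30. Of the 27 pairs that do not overlap, 26 moved the same way, LCTL and MAP2K1 being the exception. Besides the metallothioneins, the IL1 pair and the IGFBP pair, TXNIP, ANKRD34A, ITGA10 and PIAS3 rose together on chromosome 1, with log2 fold changes of 1.54, 1.0, 3.17 and 0.70. SCNN1A and TNFRSF1A, the TNF receptor, lie 4729 bases apart and rose by 3.69 and 0.62. The lncRNA pair LINC01291 and LINC01293, 1840 bases apart, fell.

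The 414 genes were then read in the 12 depleted samples. Their values did not enter the siNS fold changes, but they shared the fit that set the filter and the spread. With edgeR on the 6 siNS libraries alone, 414 genes were called too, and 394 of them were among these. In siHP1γ cells, where 1.67% of all genes were called with Dex, 134 of the 252 higher genes (53.2%) and 60 of the 162 lower genes (37.0%) were called in the same direction, and 0 in the opposite one. In siPRMT5 cells, where 5.44% were called, 193 (76.6%) and 100 (61.7%) were called in the same direction. CXCR4, a chemokine receptor, was called in the opposite one (-0.93 in siNS and 1.65 in siPRMT5 cells). The sign was the same for 248 and 246 of the higher genes and for 162 and 154 of the lower genes. The median log2 fold change of the higher genes was 1.05 in siNS, 0.660 in siHP1γ and 1.19 in siPRMT5 cells, and that of the lower genes -0.863, -0.545 and -0.790. The siNS values are those that picked the genes, so these medians are no test of the depletions. Called in the same direction in both depleted cells were 127 higher and 51 lower genes.

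**Figure D3:**
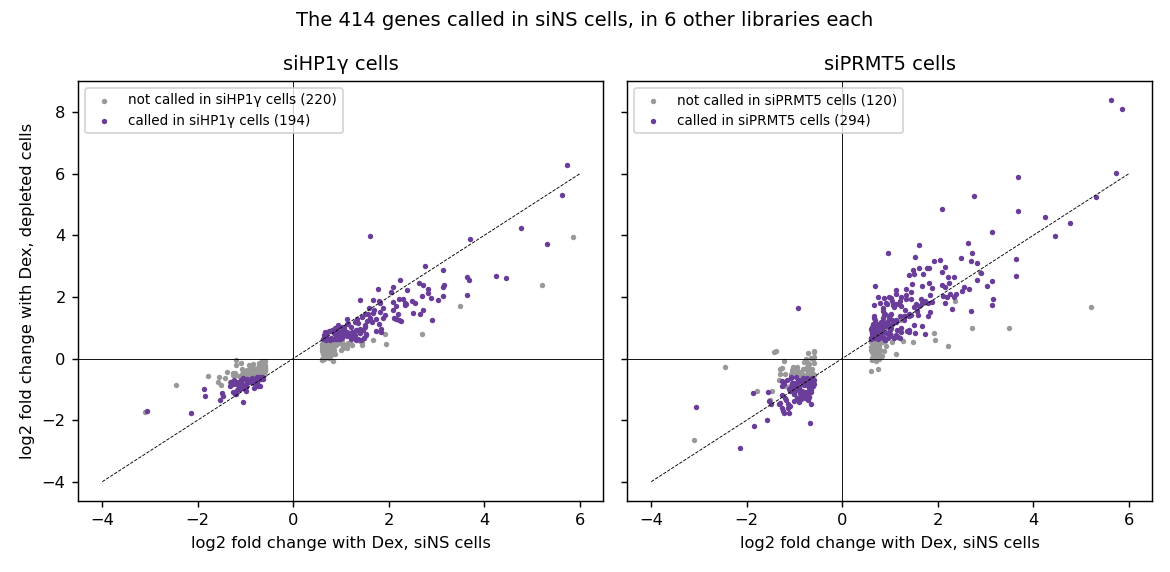
Log2 fold change with Dex in siHP1γ cells (left) and siPRMT5 cells (right) against that in siNS cells for the 414 genes called in siNS cells. Purple points were also called in the depleted cells (194 and 294), grey points were not, the dashed line marks equal values, and nearly all points share the sign.

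The 6 markers moved in the same direction in all 3 kinds of cells and were called in each. TSC22D3 rose by 3.64 in siNS, 2.63 in siHP1γ and 3.24 in siPRMT5 cells. FKBP5 rose by 2.15, 1.71 and 2.99, PER1 by 2.54, 1.79 and 2.34, and KLF9 by 2.82, 2.13 and 3.12 on the log2 scale. ESM1 gave -3.07, -1.70 and -1.57, and IL11 -2.14, -1.76 and -2.92. CCBE1 (1.14, 0.73 and 1.78), IGFBP3 (1.33, 0.93 and 2.25) and PLAT (1.84, 0.87 and 1.52) were called in each as well. These are changes with Dex within each kind of cell, and levels were not compared between kinds. NR3C1 was called in none, with -0.22, -0.06 and -0.08. HAS2, singled out after its values were seen, had -1.21 in siNS but -0.05 (standard error 0.13) and -0.08 (standard error 0.11) in the depleted cells. By edgeR's interaction term, the Dex response differed from that of siNS cells for 0.399% of all genes tested in siHP1γ and 3.8% in siPRMT5 cells.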

How the data were processed

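RNA of the 6 siNS samples and of 12 samples of depleted cells was sequenced by the authors from Lexogen libraries on an Illumina NextSeq instrument. The reads were mapped on hg38 with Bowtie2 (2.4.2), which does not split reads across introns, and counted per gene with htseq-count (0.9.1). The deposited files hold these counts per gene symbol for 60642 symbols, whole numbers without normalization. The authors also deposited a table of fold changes and adjusted p-values from DESeq2 (2.11.40.7), which was not used.

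From the counts, edgeR (4.0.16, R 4.3.3) kept 15298 genes by filterByExpr over the 6 groups. All 18 samples entered 1 quasi-likelihood fit with TMM scaling, 1 mean per group and 12 residual degrees of freedom. Samples were grouped by title. Called genes changed at least 1.5-fold with adjusted p below 0.01, and differences between kinds of cells (interaction terms) at an adjusted p-value under 0.05. Standard errors are the log2 change divided by the root of its F statistic. Depth was 9192643 to 11517559 counts per siNS sample.

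The members and the 23 gene lists were chosen with earlier results of these data known. Named were the 6 markers, NR3C1, CCBE1, IGFBP3, PLAT, the 15 largest increases and decreases among called genes averaging 5 CPM or more that moved the same way in the 3 same-numbered pairs, the 5 largest increases and decreases in CPM, genes called from under 1 to at least 5 CPM, and for each list the called members and up to 4 others of highest CPM. One gene that the rule picks is not reported here. PER3, CRY1, CXCR4 and the genes named with the promoters, neighbours and lncRNAs were chosen after their values were seen. Locations are from GENCODE 44, in which 89.9% of the genes tested were found. Alternatives were DESeq2 1.42.0, other scalings and filters, the replicate number as a block, other thresholds, the siNS samples alone, and each siNS sample left out.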

Additional observations from a re-analysis of the deposited data

Results flagged for a closer look

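Of the 6 markers, NR3C1, CCBE1, IGFBP3, PLAT and HAS2, 9 had a Dex response that differed between depleted and siNS cells by edgeR's interaction term, with Benjamini-Hochberg adjustment over all genes tested. Of all genes, 0.399% passed the same test in siHP1γ cells and 3.8% in siPRMT5 cells. These 11 genes were not drawn at random from them, so the count is a description. The differences are those of log2 fold changes, depleted minus siNS cells, and each rests on 3 libraries per group. They are not differences of level, and levels were not compared between siRNAs here. The study compared levels after Dex instead. From its sequencing it classed CCBE1, PLAT and IGFBP3 as dependent on PRMT5 and HP1γ. By RT-qPCR it also reported lower levels of these 3 genes with Dex after depletion of PRMT5 and HP1γ, and an effect on them without Dex too. In siHP1γ cells the increase was smaller for TSC22D3 (-1.0, adjusted p = 0.001), PLAT (-0.97, adjusted p = 0.00087), PER1 (-0.75, adjusted p = 0.02) and KLF9 (-0.69, adjusted p = 0.023), and the decrease was smaller for ESM1 (1.37, adjusted p = 0.003) and HAS2 (1.16, adjusted p = 0.00061). In siPRMT5 cells the increase was larger for FKBP5 (0.84, adjusted p = 2.3e-05), IGFBP3 (0.92, adjusted p = 3.3e-06) and CCBE1 (0.65, adjusted p = 0.003), and the decrease was smaller for ESM1 (1.5, adjusted p = 0.00055) and HAS2 (1.13, adjusted p = 3.7e-05). Both comparisons subtract the same siNS change, so the ESM1 and HAS2 differences in siHP1γ and siPRMT5 cells are not independent. HAS2 was picked after its values were seen. The markers were chosen with their siNS response known, and the part of that choice in these differences was not tested.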

How the results depend on the processing

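The 414 calls became 194 (135 higher, 59 lower) with a fold change of at least 2, of which 90 were called in siHP1γ and 132 in siPRMT5 cells, and 191 (129 higher, 62 lower) with edgeR's glmTreat against 1.5. These are stricter by construction. The other alternatives gave 335 (DESeq2 on the 6 siNS libraries) to 564 calls (unadjusted p-values), and leaving out 1 siNS library 365 to 415. Same-numbered siNS libraries did not deviate together (correlations 0.041, 0.086 and -0.040), so the numbers were not taken as pairs. The same correlations were -0.217, -0.076 and -0.112 in siHP1γ cells and 0.454, -0.008 and -0.219 in siPRMT5 cells. A replicate block gave 407 calls (250 higher, 157 lower), 402 of them among the 414, with 193 called in siHP1γ and 291 in siPRMT5 cells. Of 98 called genes under the naming rule, 88 kept the call in every alternative in which they were tested other than the stricter fold changes, and 0 changed direction. The other 10 were DAAM2, SCNN1A and PECAM1 (lost with DESeq2 on 6 libraries) and CIDEC, SOCS3, KLF15, DUSP10, IGFBP4, MCL1 and FOXA1. DESeq2's size factors gave 418 calls and library size alone 421. Asking for 10 counts in every library left fewer genes to test and gave 363 calls, 356 of them among the 414. The effect of depth itself was not tested.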
